A study of Dunaliella tertiolecta UTEX 'LB 999' with 2 samples.

Results

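Subunits of the mitochondrial respiratory chain were represented by 4 contigs among the 234 that the authors listed as different between 4 h and 8 h after a rise in light in the green alga Dunaliella tertiolecta. They were chosen by name, as contigs whose best hit carried a symbol starting with NUO, COX or QCR, or a description naming NADH dehydrogenase, cytochrome c oxidase, ubiquinol or mitochondrial ATP synthase. The plastid oxidase PTOX2 was left out. Of the 4, the 3 contigs NUOA1, NUOB12 and NUOP4 were named for NADH:ubiquinone oxidoreductase (complex I), and QCR6 for ubiquinol-cytochrome c reductase (complex III). All 4 stood in the list of contigs higher at 8 h, which held 57.3% of all listed contigs, and 0 in the list of lower ones.

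The alga, a wall-less flagellate of salt water, was grown as strain UTEX LB-999 in a chemostat at 25 °C with 0.5 M NaCl under 40 µmol photons m-2 s-1, and both groups received the same step to 400 µmol photons m-2 s-1 once growth was steady. The groups were 4 h and 8 h after that step, with 1 mRNA library each and no unshifted library among the labelled samples. The library sizes used in the authors' RPKM values were 674129 reads at 8 h and 556037 at 4 h, as recovered from those values. Reads that the authors did not count would not be included. Levels are the authors' deposited means in RPKM, that is, reads divided by contig length in kilobases and by library size. A ratio is the 8 h level over the 4 h level. Its 95% interval is an exact one from the reads and covers counting error only. No test was made between the time points, since 1 library per time point leaves no replicate spread. Every listed contig had a ratio of at least 2 in one direction and a p-value under 0.05 in the authors' deposited table, so the direction and the minimum size of each difference below were fixed by how the lists were made.

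The respiratory chain of the inner mitochondrial membrane passes electrons from NADH through complex I, ubiquinone, complex III and cytochrome c to complex IV, which reduces oxygen. Complexes I, III and IV pump protons, and the ATP synthase uses the gradient. In green algae a few core subunits are encoded in the mitochondrial genome, and most subunits, including the small accessory ones, come from nuclear genes. In the light, algal mitochondria are also known to oxidise reducing equivalents that leave the chloroplast.

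The complex I contigs belonged to small accessory subunits, not to the core subunits that carry out electron transfer. NUOA1, described as a subunit of 8 kDa, corresponds by name to the mammalian membrane-arm subunit NDUFA1. It stood at 16.0 RPKM at 4 h and 79.1 RPKM at 8 h, on 2 reads and 12 reads. It thus had the lowest level of the 4 contigs at 4 h and the highest at 8 h. The ratio was 4.95 (interval 1.10 to 45.5), or 2.31 on the log2 scale. A single read of NUOA1 was worth 7.99 RPKM at 4 h.

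NUOB12, a subunit of 7 kDa whose name matches the mammalian membrane-arm subunit B12, had the most reads of the 4. It was at 21.7 RPKM at 4 h and 53.6 RPKM at 8 h, on 8 reads and 24 reads. The ratio was 2.47 (interval 1.08 to 6.37). Its raw total of 38.5 reads was not whole, as happens where a read is divided among contigs, but its reads at 4 h and at 8 h were whole within 0.001 reads. The raw totals of the other 3 contigs were whole numbers.

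NUOP4, a subunit of 9 kDa, was at 19.4 RPKM at 4 h and 39.9 RPKM at 8 h, on 6 reads and 15 reads. Its ratio of 2.06 lay just above the authors' limit of 2. The counting interval, 0.756 to 6.49, included equal levels in the 2 libraries.

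QCR6 was the 1 contig of complex III. Its best hit was the hinge protein, an acidic subunit that in yeast and mammals helps cytochrome c meet cytochrome c1. It was at 21.7 RPKM at 4 h and 57.3 RPKM at 8 h, on 5 reads and 16 reads. The ratio was 2.64 (interval 0.924 to 9.21), so equal levels lay within counting error for QCR6 as for NUOP4.

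**Figure D1:**
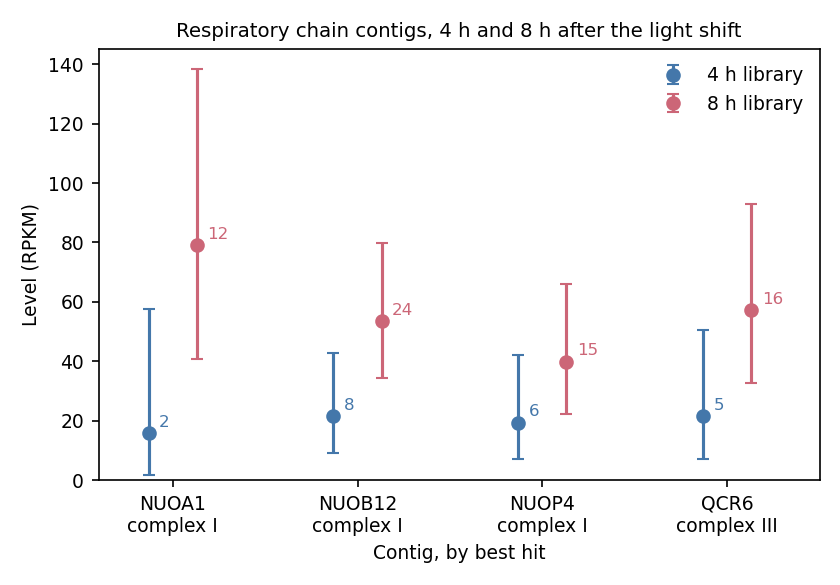
Level in RPKM (linear axis) of the 4 respiratory chain contigs in the 4 h library (blue) and the 8 h library (red). Bars are 95% Poisson intervals of the reads, and the numbers beside the points are reads. The 4 h points lie between 16.0 and 21.7 RPKM and the 8 h points between 39.9 and 79.1 RPKM, while the bars of the 2 libraries overlap for each contig.

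The 4 contigs were close to each other at 4 h and further apart at 8 h. At 4 h the highest level, that of QCR6, was 1.36 times the lowest, that of NUOA1. At 8 h the highest level was 1.98 times the lowest, in the order NUOA1, QCR6, NUOB12, NUOP4. No neighbours in either order could be separated by their counting intervals. At 8 h even the first and the last in the order overlapped, with 40.9 to 138 RPKM for NUOA1 and 22.4 to 65.9 RPKM for NUOP4. Leaving NUOA1 aside, the 3 ratios lay between 2.06 and 2.64.

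Pooled over the 4 contigs, the respiratory chain transcripts summed to 78.7 RPKM at 4 h and 230.0 RPKM at 8 h, a ratio of 2.92. Counted as reads, they held 21 reads at 4 h and 67 reads at 8 h, or 37.8 and 99.4 RPM, which scales reads to library size alone. The ratio of these pooled reads was 2.63 (interval 1.59 to 4.52), and this interval did not reach equal levels. The ratio of summed RPKM was larger because RPKM gives each read of a short contig more weight, and NUOA1, with the largest ratio, was the shortest. Without NUOA1 the ratio of summed RPKM was 2.40. The complex I contigs alone had a pooled read ratio of 2.63 (interval 1.48 to 4.94), next to 2.64 for QCR6. The pooled interval describes contigs already chosen for being higher, and does not allow for that choice.

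The respiratory chain contigs were short. They measured 225 bases for NUOA1, 414 for QCR6, 557 for NUOP4 and 664 for NUOB12, against a median of 1112.5 bases for the 130 other contigs in the higher list. NUOA1 was the shortest of all 234 listed contigs, and its 225 bases could encode at most 75 amino acids. The contigs had about as many reads as the others in the higher list, with a median of 15.5 reads at 8 h and 5.5 reads at 4 h against 16 and 5. Because the contigs were shorter, their levels were higher on the same number of reads, with a median of 55.5 RPKM at 8 h against 23.1 RPKM. By level at 8 h, NUOA1 ranked 4, QCR6 8, NUOB12 9 and NUOP4 21 among the 134 higher contigs. By ratio they ranked 12, 80, 97 and 125, and their median ratio of 2.56 was below the 2.75 of the other higher contigs. Among the 28 other listed contigs of at most 664 bases, 12 were higher and 16 lower, and the part of contig length in these values was not tested.

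**Figure D2:**
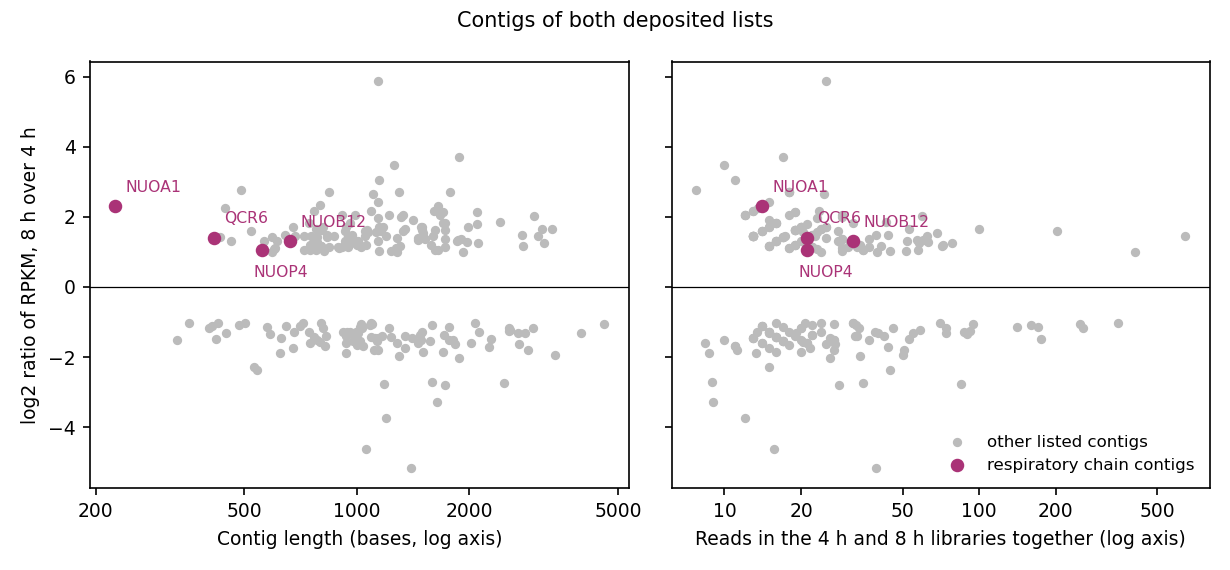
Each point is 1 of the 234 listed contigs, with its log2 ratio of RPKM at 8 h over 4 h against contig length (left, log axis) and against its reads in both libraries together (right, log axis). The band around 0 is empty because the lists hold only ratios of at least 2. The 4 respiratory chain contigs (purple) lie at the short end of the left panel, from 225 to 664 bases, and within the range of the other contigs in the right panel.

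Set beside the background of the lists, the direction of the 4 contigs was that of the larger list. Of all 234 listed contigs, 57.3% were higher at 8 h, against 4 of 4 here. A ratio of at least 4 was found in 1 of the 4, NUOA1. It was found in 10.7% of all listed contigs, or 25 of the 134 in the higher list. The counting interval lay wholly above 1 in 2 of the 4, NUOA1 and NUOB12. The same held for 28.6% of all listed contigs, or 67 of the 134 in the higher list. Counts among 4 contigs are too few to set these shares apart.

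For these 4 contigs the error behind the p-values in the authors' deposited table was narrower than that from their reads. In the authors' deposited table the p-value was 5.5e-09 for NUOA1, 0.000117 for QCR6, 0.000372 for NUOB12 and 0.00895 for NUOP4. The step-up FDR in the authors' deposited table was 2.26e-07, 0.00228, 0.00616 and 0.0806 in the same order. It was under 0.05 for 3 of the 4. Of all listed contigs, 18.4% were higher with an FDR under 0.05 in the authors' deposited table. These were 43 of the 134 contigs in the higher list. For these 4 contigs the p-values in the authors' deposited table were matched within 0.302% by a Wald calculation that treats each RPKM value as a number of reads. The standard error of the natural log of the ratio is then 0.274 for NUOA1, while the 12 and 2 reads themselves give 0.764. The standard error from reads was 1.60 times that from RPKM for NUOB12, 1.74 times for NUOP4, 2.03 times for QCR6 and 2.79 times for NUOA1. For the 130 other higher contigs, whose median length was 1112.5 bases, the median of this factor was 1.26.

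The names rest on similarity to Chlamydomonas reinhardtii proteins and differ in strength. QCR6 had an E value of 4e-36, NUOA1 of 1e-18 and NUOP4 of 2e-16. For NUOB12 no E value was given, and its identifier cell repeated the symbol. NUOA1 and QCR6 were each 1 of 2 transcripts assembled at their locus, and the other transcript of neither locus was listed. No sequence of the contigs was used here, so the names could not be checked further.

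The lists were also searched for other genes of mitochondrial energy metabolism. Complex II, which feeds electrons from succinate to ubiquinone, was represented by SDH2, named for the iron-sulphur subunit of succinate dehydrogenase. SDH2 was at 7.89 RPKM at 4 h and 19.8 RPKM at 8 h, on 5 reads and 15.2 reads, a ratio of 2.50 (interval 0.855 to 8.70). Its reads at 8 h were not whole and were rounded for the interval, as were those of MITC4 below. It was the 1 listed contig of the TCA cycle and pyruvate entry list. With SDH2, contigs named for complexes I, II and III were in the higher list. For complex IV and for ATP synthase, 0 contigs were listed in either direction. Subunits outside the lists were not analysed here, so nothing can be said of the levels of the other subunits of any complex.

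The remaining lists of mitochondrial genes held few contigs, all of them higher at 8 h. The list of mitochondrial carriers held MITC18, of the family that moves metabolites across the inner membrane, at 10.5 RPKM at 4 h and 23.1 RPKM at 8 h, a ratio of 2.20 (interval 0.818 to 6.86). MITC4, an S-adenosylmethionine carrier that the wording missed and that was named after its value was seen, was at 6.50 and 18.0 RPKM, a ratio of 2.78 (interval 1.35 to 6.36). The E value of MITC4 was 6e-15, and where its protein lies in the cell was not checked. MRPS19, named for a protein of the small mitochondrial ribosomal subunit, was at 5.76 and 19.0 RPKM, a ratio of 3.30 (interval 0.890 to 18.2). These contigs share the direction that 57.3% of the lists had.

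The list of alternative and terminal oxidases held PTOX2, which passes electrons from plastoquinol to oxygen in the plastid. PTOX2 was at 14.6 RPKM at 4 h and 35.5 RPKM at 8 h, on 16 and 47 reads, a ratio of 2.42 (interval 1.35 to 4.58). The mitochondrial alternative oxidase itself was not among the listed contigs. The list of mitochondrial import and assembly factors had 0 matches. The list of cytochrome c and its haem had 2 matches, QCR6 itself and a polyketide cyclase matched by its letters. The list of plastid ATP synthase and electron transport had 1 match, the proteasome subunit RPN6, also matched by wording. Neither of these wording matches was described as part of an electron transport chain, and their sequences were not checked.

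**Figure D3:**
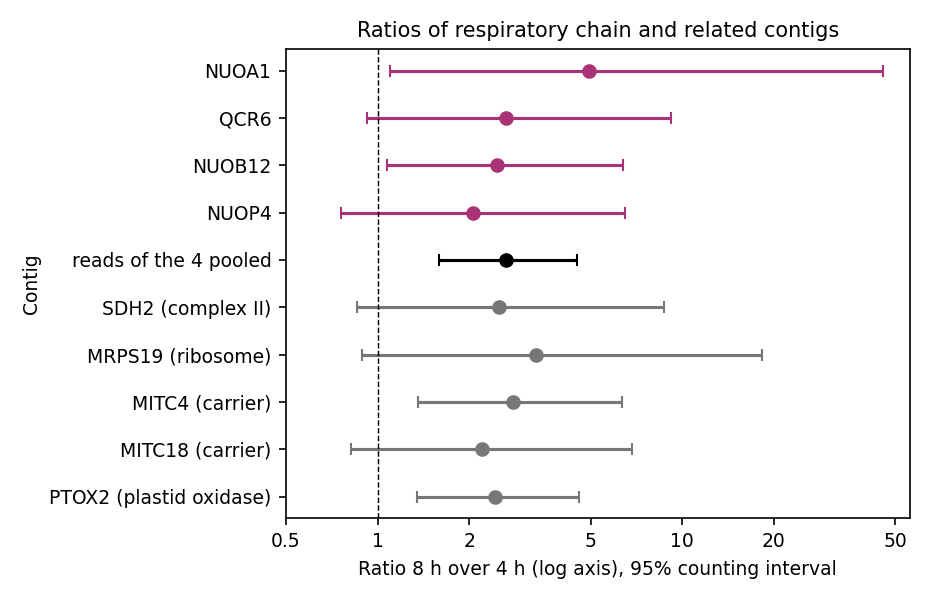
Ratio of the level at 8 h over that at 4 h (log axis) for the 4 respiratory chain contigs (purple), for their pooled reads (black) and for other listed contigs with mitochondrial names and PTOX2 (grey), with 95% counting intervals. The dashed line marks equal levels. The pooled reads (1.59 to 4.52) lie wholly above the line, as do NUOA1, NUOB12, MITC4 and PTOX2, while the intervals of QCR6, NUOP4, SDH2, MRPS19 and MITC18 cross it. All contigs shown were listed for a ratio of at least 2, and the intervals do not allow for that choice.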

How the data were processed

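The deposited data are lists of contigs, 134 higher and 100 lower at 8 h. Partek is named in the submitters' processing notes. The sources used here give no aligner, assembler or reference. The authors' deposited means are RPKM. Their columns name neither sample and were taken as 8 h and 4 h from the contrast cell and ratio alone. The authors' deposited table also gives a p-value, an FDR, the ratio and the natural log of that ratio, a signed fold score in the lower list, and raw totals as estimated counts.

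The number of reads behind each RPKM value was worked out from the contig's length and the largest raw count in any library. Ratio intervals are Clopper-Pearson intervals at 95% on rounded reads. Their coverage was checked on simulated reads to which no selection by ratio or p-value was applied. That check therefore does not show the coverage for contigs chosen by the authors' limits, as all contigs here were. Level intervals are exact Poisson and were not checked on simulated data. Reads are not independent molecules, so both kinds of interval cover counting error only. Every contig meeting the name rule was named, with lists of related genes matched by keyword. The members and lists were chosen with earlier results of these data known. Alternatives varied pooling, a pseudocount (1 or 0.1 RPKM) and membership. The tools were scipy 1.17.1, numpy 2.4.6 and pandas 2.3.3 under Python 3.11.15, with matplotlib 3.10.9 for plots.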

Additional observations from a re-analysis of the deposited data

Results flagged for a closer look

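Reads outside both labelled libraries were found in the raw totals of the 4 respiratory chain contigs. Over all listed contigs these reads divide between 2 further libraries, recovered as 241496 and 178821 reads in size. For 161 of the 161 contigs whose raw total was whole within 0.001 reads, this division came out whole too, within 0.05 reads. No label used here names either library. NUOB12 had 6.51 reads in the larger one, above the limit of 3 reads set by a count of 0. The 4 contigs together had 7.51 reads in the larger library and 5.0 in the smaller one, also more than 3. Passing 3 reads is not a test of any difference between libraries.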

How the results depend on the processing

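The pooled ratio of 2.92 stayed within 2.40 to 3.20 under all 16 alternatives, inside the counting interval of the pooled reads, and those extremes came from leaving out NUOA1 and NUOP4 (NUOP4 is also the contig that an FDR under 0.05 removes). Of these alternatives, 3 were added after the data were seen: NUOB12 left out for its raw total that was not whole (3.09), complex I contigs alone (3.03) and SDH2 included (2.88). The first and second of these repeat the planned omissions of NUOB12 and of QCR6. A minimum of 10 reads and matching by gene symbol kept the same 4 contigs, so neither could change the ratio. Each of the 4 had a ratio of at least 2.06, so no choice among them could take the pooled ratio below that. The ratios of single contigs under a pseudocount or other rounding of reads moved by less than their counting intervals in all 16 cases. Rounding changed only NUOB12, whose recovered reads lay furthest from whole numbers, by 0.0008 reads at most. Its ratio became 2.37 when the recovered 23.9992 reads at 8 h were rounded down, a step that takes almost a full read from a nearly whole value. The number of contigs listed as higher was 4. It fell to 1 with a ratio of at least 4 (NUOA1) and to 1 with an E value under 1e-20 (QCR6), and was 3 with an FDR under 0.05 in the authors' deposited table. The E value limit removed NUOB12 only because no E value was given for it. No replicate could be left out, with 1 library per time point. No paired analysis was possible because each time point has 1 library. Depth limits every value here, since the contigs had 2 to 8 reads each at 4 h.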

Other observations

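In the 2 libraries without a label here, each respiratory chain contig had reads in 1 library and none in the other. NUOA1 was at 18.4 RPKM (1 read) and NUOB12 at 40.6 RPKM (6.51 reads) in the larger library, and both had 0 reads in the smaller one. NUOP4 was at 30.1 RPKM (3 reads) and QCR6 at 27.0 RPKM (2 reads) in the smaller library, and both had 0 reads in the larger one. A count of 0 allows up to 3 reads, a one-sided limit at 95%. In the smaller library this limit is 74.6 RPKM for NUOA1 and 25.3 RPKM for NUOB12. In the larger one it is 22.3 RPKM for NUOP4 and 30.01 RPKM for QCR6. A count of 0 therefore does not show that a transcript was absent.

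Summed over the 4 contigs, the larger of these libraries held 31.1 RPM, reads scaled to library size alone (95% Poisson interval 14.3 to 65.3) and the smaller one 28.0 (9.08 to 65.3). The 4 h library held 37.8 (23.4 to 57.7) and the 8 h library 99.4 (77.0 to 126). The 134 contigs of the higher list together held 616 RPM in the larger library, 2000 in the smaller one, 1975 at 4 h and 5348 at 8 h. The 100 contigs of the lower list held 1114, 4559, 5093 and 1965 RPM in the same order. What the unlabelled libraries are is not known here. The contigs were selected on the 8 h and 4 h values, so no comparison between the 4 libraries was made.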
